A study of Mus musculus with 36 samples.

Results

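Accessible chromatin of the left ventricle was compared between the border zone of a myocardial infarction and sham-operated tissue 4 days after surgery. The members are all regions of the 3 deposited lists for that day, which were selected as a complete set and number 46827 of the 122759 regions listed for days 4, 7 and 14. The lists hold 5721 regions with more border zone tags, 3453 regions with more sham tags and 37653 non-differential regions, where a tag is a sequenced read or fragment counted in the region. Each condition of day 4 was 1 ATAC-seq library from FVB/N mice, the one after myocardial infarction and the other after a sham operation, without a replicate, so no difference was tested.

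The labels of both libraries name Cdh5-Cre; Sun1-sfGFP mice bred on FVB/N. Cdh5 is active in endothelial cells, and Sun1-sfGFP marks the nuclear envelope of cells in which Cre has acted. The same labels give both a sort of GFP-marked nuclei and a PCM1 pulldown for cardiomyocytes, and call the samples PCM1-sorted nuclei. The sources used here do not give the order and yield of these steps, the age and number of the animals behind a library or the genotype of each animal. Genes were not assigned to the regions, because no annotation of the build was used, so the labelled cell type was not checked against its defining markers. In nuclei pooled from tissue, fewer nuclei of a type and less accessibility per nucleus cannot be told apart.

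In ATAC-seq a transposase inserts sequencing adapters into DNA that is not covered by nucleosomes, and promoters and enhancers in use take up the most insertions. The border zone is the surviving muscle next to the infarct scar, where cardiomyocytes leave part of their adult gene programme and re-express genes of the fetal heart. PCM1 is a centrosomal protein that gathers around the nuclei of cardiomyocytes and is used to pull these nuclei out of heart tissue.

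The typical difference at day 4 was about 2-fold in a region 1000 bp wide that carried few tags. Regions with more border zone tags made up 12.2% of the listed regions, and those with more sham tags made up 7.37%. Each list was chosen by its fold, so the folds here are a description of the lists. A border zone-higher region had between 2 and 391 sham tags (median 24) and between 35 and 789 border zone tags as listed (median 52.8). A sham-higher region had between 35 and 1776 sham tags (median 44) and between 3 and 860 border zone tags (median 21.7). The larger value was 35 tags or more in both lists.

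As listed, border zone-higher regions reached larger folds than sham-higher regions. The median fold was 2.12 in the border zone-higher list, with 1.80 at the 10th percentile, 3.50 at the 90th and 23.8 at most. In the sham-higher list the median fold was 1.98, with 1.79 at the 10th percentile, 2.64 at the 90th and 15.1 at most. With the scaling taken out of these same lists, the medians were 2 in border zone-higher and 2.09 in sham-higher regions. The lists were not called again for this. They were chosen by the scaled fold, so a shift of the medians in this direction is built in. As listed, the share of regions under 2-fold was 37.6% of the border zone-higher and 52.7% of the sham-higher list. At least 3-fold more tags were listed in 921 border zone-higher and 183 sham-higher regions. At least 8-fold more were listed in 50 and 6 regions, and at least 10-fold more in 31 and 3 regions. The upper end of both lists was thus thinly filled, and most of it lay on the border zone side.

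The smallest fold in either list was 1.75. Just inside the border zone-higher list, chr15:101021751-101022750 had 73 sham and 128 border zone tags, and chr1:154981251-154982250 had 56 and 98.0 (coordinates are mm9, counted from 1). Just inside the sham-higher list, chr4:42970751-42971750 and chr5:122942751-122943750 both had 54 sham and 30.8 border zone tags. On the other side of the threshold, the non-differential region with the largest border zone ratio, chr3:126314251-126315250, had 29 sham and 49 border zone tags, a ratio of 1.69. The one with the largest sham ratio, chr4:130360751-130361750, had 79 sham and 41 border zone tags, a ratio of 1.93. That ratio is above the threshold because the border zone tags of the non-differential list are unscaled.

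The border zone tags of the differential lists are scaled values. They are whole tags times 1, 1.03 or 1.10, and among the differential regions of 1000 bp the factor went with the total of whole tags. The factor 1 was found at totals from 37 to 47, the factor 1.03 from 47 to 82 and the factor 1.10 from 82 to 386. Among the non-differential regions the largest sham ratio of 1.93 became 1.75 with the factor 1.10. The largest factor shifts a log2 ratio by 0.14 towards the border zone, and ratios called whole-tag ratios below are free of it.

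The intervals of most listed folds lay above 1 but reached below the threshold of 1.75. The regions were listed by the fold and size of these same tags, which largely fixes that the intervals lie above 1, so the counts describe the precision and support no call. An exact 95% interval of each fold was derived from the Clopper-Pearson interval of the part of a region's whole tags that came from the border zone. It covers counting error only, since the tags carry no molecular identifiers and can be copies of one molecule. The bound nearest to 1 was above 1 in all 5721 border zone-higher regions and in 3397 of 3453 sham-higher regions. It was above 1.75 in 1044 border zone-higher regions (18.3%) and in 159 sham-higher regions (4.61%). It was above 2 in 611 and 75 regions. The median interval ran from 1.34 to 3.53 for a border zone-higher and from 1.20 to 3.46 for a sham-higher region.

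**Figure D1:**
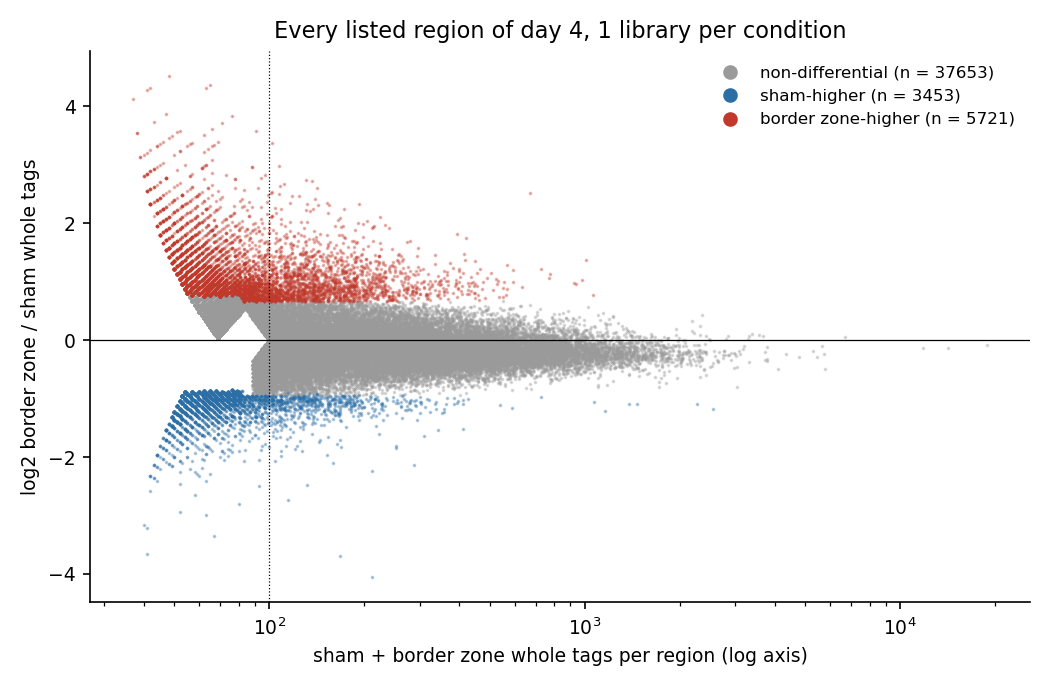
Every listed region of day 4 by its total of whole tags (x, log axis) and its log2 ratio of border zone to sham whole tags (y), coloured by list; the dotted line marks 100 tags in total. Differential regions crowd at the left, with 6825 of the 9174 under 100 tags, and the non-differential list has no sham-leaning region among its lowest totals.

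Calls in both directions were concentrated in regions with few tags. Among the 14300 regions with fewer than 100 whole tags in total, 27.8% were border zone-higher and 20.0% sham-higher. The shares were 8.82% and 3.29% of 10637 regions with 100 to 149 tags, and 6.29% and 1.95% of 10916 regions with 150 to 299 tags. From 300 to 599 tags they were 1.60% and 0.404% of 7173 regions. With 600 or more tags they were 0.263% and 0.184% of 3801 regions. Within the 1000 bp regions the order was the same, from 29.2% and 21.3% under 100 tags to 0 of the 88 regions with 600 or more, which by the exact interval allows a share of up to 4.11% (Clopper-Pearson, counting error only). In tags per kb, the median was 72 in border zone-higher, 65 in sham-higher and 154 in non-differential regions.

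The low end of the lists is not symmetric between the conditions, as the plot of ratio against total shows. Among non-differential regions, all 4421 in which both values were under 50 had at most 34 sham and at least 35 border zone tags. The 22963 non-differential regions with more sham tags had at least 50 of them, whereas the 14690 others began at 35 border zone tags. Regions with few tags that leaned towards sham without reaching the threshold therefore do not appear in the lists analysed here. Shares of regions under 100 tags are for that reason given with their lists and compared no further, and regions with at least 100 tags are used where a level over all regions is needed.

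In the 32527 regions with at least 100 whole tags, 5.38% were border zone-higher (1750 regions) and 1.84% were sham-higher (599 regions). Border zone-higher regions were thus 74.5% of the differential regions there, against 62.4% over all totals (61.4 to 63.4%, exact 95% binomial interval). This split moved with the scaling. When these regions were called again without scaling at the same threshold, 1259 were border zone-higher and 970 sham-higher, a share of 56.5%. With the factor 1.03 for all regions, 1425 and 775 were called, a share of 64.8%. The border zone share stayed above 50% in each of these settings.

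The non-differential regions leaned slightly towards sham. Over the 30178 of them with at least 100 tags, the median whole-tag ratio of border zone to sham was 0.889, a log2 ratio of -0.17 with quartiles of -0.35 and 0.05. With the factor 1.10 that median ratio was 0.980. These values are the background for the ratios of single loci below.

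Width differed between the lists. Among border zone-higher regions 17.5% were wider than 1000 bp, against 9.99% of sham-higher and 38.6% of non-differential regions. Regions of at least 5000 bp numbered 6, 2 and 175, and the widest spanned 9000, 7000 and 31500 bp. A width of 500 bp occurred in 1641 non-differential and in 0 differential regions. Of these 1641 regions, 1584 lay directly against a differential region, and their median total of 119 tags was close to the 118 tags of the 1000 bp non-differential regions.

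The region with the largest bound in favour of the border zone was chr15:87484751-87485750. It had 3 sham tags and 62 whole border zone tags, listed as 64.1, and its fold of 21.4 had an exact 95% interval from 6.98 to 106. It was followed by chr8:32631251-32632250, with 3 sham and 60 whole border zone tags (20.7-fold, 6.75 to 103). Sham tags were nearly absent in these regions, so the upper ends of the intervals are wide. The largest fold of the list, 23.8, was found at chr3:34232251-34233250, with 2 sham and 46 whole border zone tags (6.22 to 202). With more tags in both libraries, chr18:56636251-56637250 had 7 sham and 84 border zone tags (13.2-fold, 6.14 to 33.9).

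The next 6 border zone-higher regions by this bound were alike in having single-digit sham counts. Whole sham and border zone tags were 5 and 71 at chr2:140916751-140917750, and 5 and 66 at chr8:10870751-10871750. They were 9 and 93 at chr2:82411751-82413250, a region of 1500 bp, and 2 and 40 at chr12:105424251-105425250. They were 5 and 61 at chr8:35815751-35816750, and 2 and 39 at chr2:171486251-171487250. Chromosomes 2 and 8 each held 3 of these 10 regions, and 403 and 376 of the 5721 border zone-higher regions. With 10 regions picked by rank, chromosomes cannot be compared. The folds of the 10 regions ran from 10.6 to 23.8.

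In the opposite direction, chr19:17386751-17388250 stood first, with 200 sham tags and 12 whole border zone tags. Its fold of 15.1 had an interval from 8.47 to 29.8, and from 6.71 to 42.2 with the tags of this 1500 bp region halved, since tags of wider regions appear to be counted more than once. The near bound of 8.47 was above the largest of the border zone-higher list, 6.98, but with halved tags it was below it. The second was chr4:105842751-105844250, with 156 sham and 12 whole border zone tags (12.1-fold, 6.74 to 23.9). Both regions thus carried a clear sham signal that was close to lost in the border zone library.

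The remaining 8 sham-higher regions of this rank had folds from 5.41 to 12.7. Sham and whole border zone tags were 61 and 6 at chr12:113035251-113036250, 38 and 3 at chr4:63186251-63187250, and 100 and 15 at chr2:155697751-155699250. They were 56 and 7 at chr10:9214751-9215750, 70 and 10 at chr7:36209251-36210250, and 112 and 20 at chr4:70956251-70957750. These 6 regions show few border zone tags rather than none. The last were chr5:65073251-65074250, with 37 and 4 tags, and chr12:112919751-112920750, with 36 and 4. Chromosome 4 held 3 of the 10 regions, too few for a comparison of chromosomes, and 211 of the 3453 sham-higher regions.

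**Figure D2:**
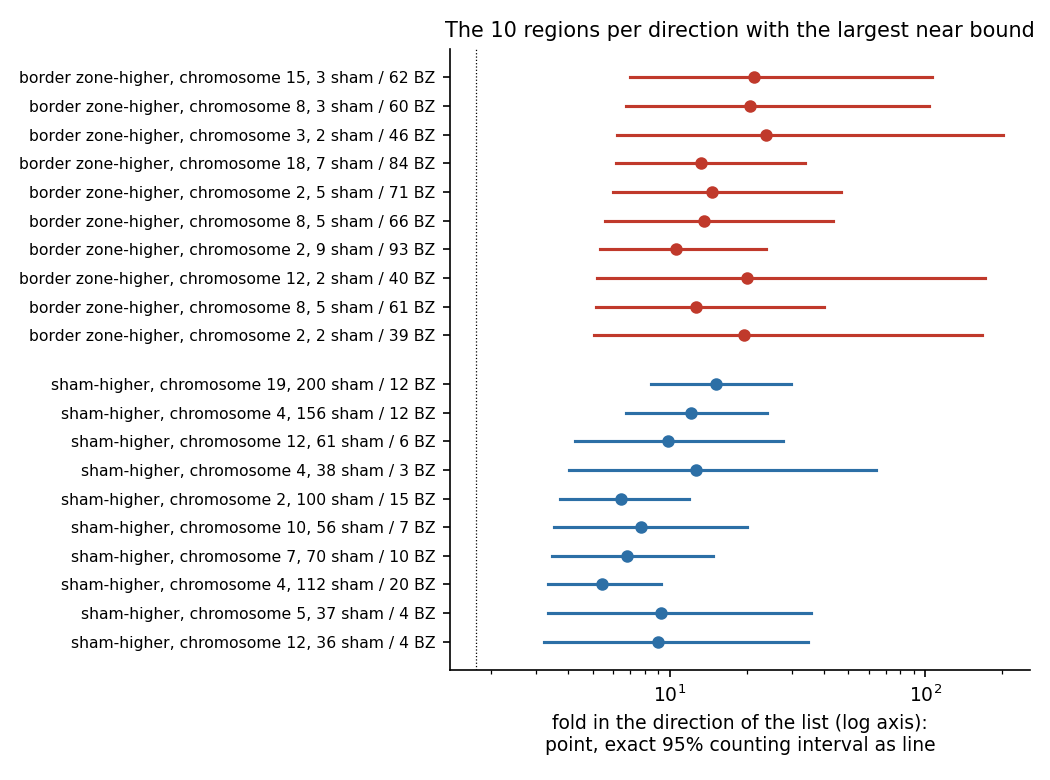
Fold of the 10 border zone-higher (top, red) and 10 sham-higher (bottom, blue) regions with the largest bound nearest to 1, on a log axis; points are folds, lines exact 95% counting intervals, the dotted line the threshold of 1.75, and row names give sham and whole border zone tags. Every interval as drawn lies above 3, and intervals are widest where the smaller count is 2 or 3. Tags of the 1500 bp regions appear to be counted more than once. With their tags halved, the lowest of their intervals would begin at 2.74, at chr4:70956251-70957750.

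Differential regions with many tags were few, and most of the sham-higher ones lay close together. Of the 3801 regions with at least 600 tags, 10 had more border zone tags and 7 had more sham tags. Among the latter, 5 of the 7 lay on chromosome 14 between 55.5 and 55.7 Mb, and among the former 3 of the 10 lay on chromosome 13 between 11.6 and 11.7 Mb. All of these differential regions were at least 2500 bp wide, and tags of wider regions appear to be counted more than once. The deepest was chr14:55605251-55610750, with 1776 sham and 860 border zone tags (2.06-fold, 1.90 to 2.25). It was followed by chr2:113867751-113874750, the widest sham-higher region at 7000 bp, with 1549 sham and 765 border zone tags (2.02-fold, 1.85 to 2.21).

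Among the deep border zone-higher regions, chr6:5429751-5433250 stood apart. It had 100 sham and 622 border zone tags, a fold of 6.22 (5.02 to 7.77), whereas the folds of the other 9 ran from 1.89 to 2.81. The region chr10:74632251-74637250 had 281 sham and 789 border zone tags (2.81-fold, 2.44 to 3.23), the most border zone tags of the list. On the X chromosome, chrX:166433251-166435750 had 323 sham and 727 border zone tags (2.25-fold, 1.97 to 2.58). The interval of the chromosome 6 region does not reach those of the other deep regions named here.

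Single chromosomes differed in the balance of the directions. Border zone-higher regions made up from 9.98% of listed regions on chromosome 11 to 14.07% on chromosome 3, with 13.8% on chromosomes 8 and 13. Sham-higher regions made up from 5.98% on chromosome 8 to 9.21% on chromosome 18, with 8.68% on chromosome 9. Of the differential regions, those higher in the border zone made up 69.8% on chromosome 8 (65.7 to 73.6%) and 54.6% on chromosome 18 (49.5 to 59.7%). These are the highest and the lowest share of any chromosome, picked after the values were seen. The intervals treat neighbouring regions as independent, so a difference between chromosomes was not tested. These extremes depend on regions with few tags. With at least 100 tags, border zone-higher regions were most frequent on chromosome 8 (6.80%), and sham-higher regions on chromosome 14 (2.70%). With the factor 1.03 for all regions, the share on chromosome 3 was 12.9% and chromosome 13 had the highest border zone-higher share, whereas chromosome 18 still had the highest sham-higher share.

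Over all listed regions with at least 100 tags, differential ones included, the median log2 whole-tag ratio of an autosome lay between -0.19 on chromosome 11 and -0.12 on chromosome 6. The X chromosome, with 11.2% and 6.28% of its 732 regions called, lay within the range of the autosomes in both directions. With at least 100 tags its shares were 3.73% and 0.982%, below those of every autosome, where the lowest were 3.85% on chromosome 17 and 1.004% on chromosome 7. These X chromosome shares rest on 19 and 5 called regions of 509. On the Y chromosome 4 regions were listed, all non-differential, with 53 to 166 sham and 44 to 109 border zone tags.

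**Figure D3:**
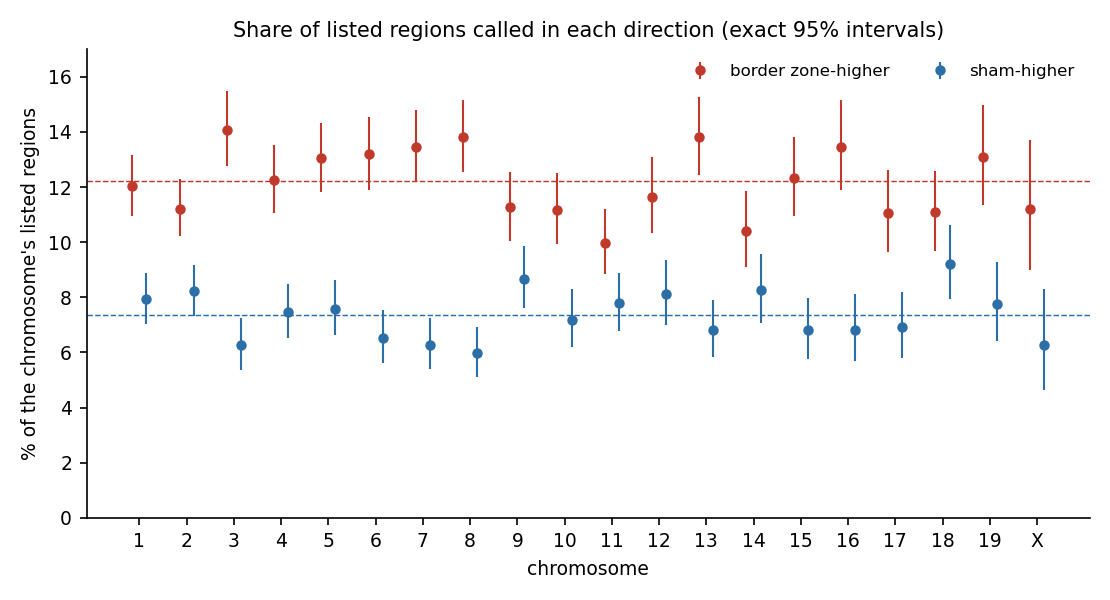
Share of listed regions that were border zone-higher (red) or sham-higher (blue) on each chromosome except Y, in percent, with exact 95% binomial intervals; dashed lines are the shares over all chromosomes, 12.2% and 7.37%. Chromosome 11 is lowest in red at 9.98%, and chromosome 18 is highest in blue at 9.21%.

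Differential regions that lay close to each other mostly shared their direction. The nearest differential region of a border zone-higher region was also border zone-higher in 86.3% of 350 cases when it lay within 2 kb (82.2 to 89.7%). The share was 79.2% of 933 cases from 2 to 10 kb, 71.5% of 1905 from 10 to 50 kb and 64.6% of 2533 beyond 50 kb. The border zone-higher list makes up 62.4% of the differential regions, so beyond 50 kb the neighbour's direction was close to that share.

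Sham-higher regions showed the same order. Their nearest differential region was sham-higher in 70.4% of 162 cases within 2 kb (62.7 to 77.3%), in 61.8% of 518 from 2 to 10 kb and in 49.7% of 1079 from 10 to 50 kb. Beyond 50 kb the share was 44.0% of 1694 cases, against the 37.6% that sham-higher regions make up of the differential regions. With regions whose larger value was at least 100 tags, the shares within 2 kb were 94.7% of 19 border zone-higher and 88.9% of 9 sham-higher regions. At this limit the lists made up 78.3% and 21.7% of the differential regions. These shares describe the positions in 1 pair of libraries, and neighbouring regions are not independent.

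A neighbour of the same direction within 50 kb was found for 45.6% of border zone-higher and 32.1% of sham-higher regions. A longer list offers more such neighbours, so these shares are not comparable between the lists. Of all listed regions, 91.2% had any listed neighbour at that distance. The median gap to the nearest listed region was 3.5 kb for both differential lists and 5.5 kb for the non-differential list. Sham-higher calls were most frequent where the fewest other regions were listed nearby, without a steady fall beyond that. From the fifth of regions with the fewest neighbours within 500 kb on either side to the fifth with the most, the border zone-higher share went from 12.9% to 12.2% and the sham-higher share from 8.37% (7.82 to 8.95%) to 6.87% (6.36 to 7.396%). With at least 100 tags the shares went from 5.33% to 5.58% and from 2.45% to 1.69%. In the groups between these ends, in order of more neighbours, the sham-higher share with at least 100 tags was 1.783%, 1.425% and 1.879%. Over all totals it was 7.27%, 7.08% and 7.28% there. The shares over all totals include the low totals, where regions leaning towards sham are missing from the lists.

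Differential regions often bordered non-differential ones. A non-differential region lay directly against 31.0% of border zone-higher regions (1772) and against 32.2% of sham-higher regions (1111). Another differential region lay directly against 8 regions of each list. Of the 37653 non-differential regions, 0 lay directly against another non-differential region. The contacts, and the gaps given above, thus depend on how the lists were cut into regions. Runs of consecutive listed regions with the same direction were short, since 77.2% of border zone-higher and 82.5% of sham-higher regions had a listed neighbour of another kind on both sides.

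The level of non-differential regions differed with the direction of the nearest call. Those with at least 100 tags that touched a border zone-higher region had a median log2 whole-tag ratio of 0.16 (1409 regions), and those that touched a sham-higher region had -0.40 (1078 regions). Over all non-differential regions with at least 100 tags the median was -0.17. Touching regions may share tags of overlapping windows, so the regions apart from a call are the clearer measure. Within 2 kb but apart, the medians were -0.09 next to border zone-higher (795 regions) and -0.24 next to sham-higher regions (467). Between 2 and 10 kb they were -0.12 and -0.20, between 10 and 50 kb -0.14 and -0.21, and beyond 50 kb -0.18 and -0.20. Apart from a call, the medians were thus below 0 beside both directions, but nearer to 0 beside border zone-higher regions. The gap between the directions narrowed with distance, and it came to a few hundredths of a log2 unit beyond 50 kb.

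**Figure D4:**
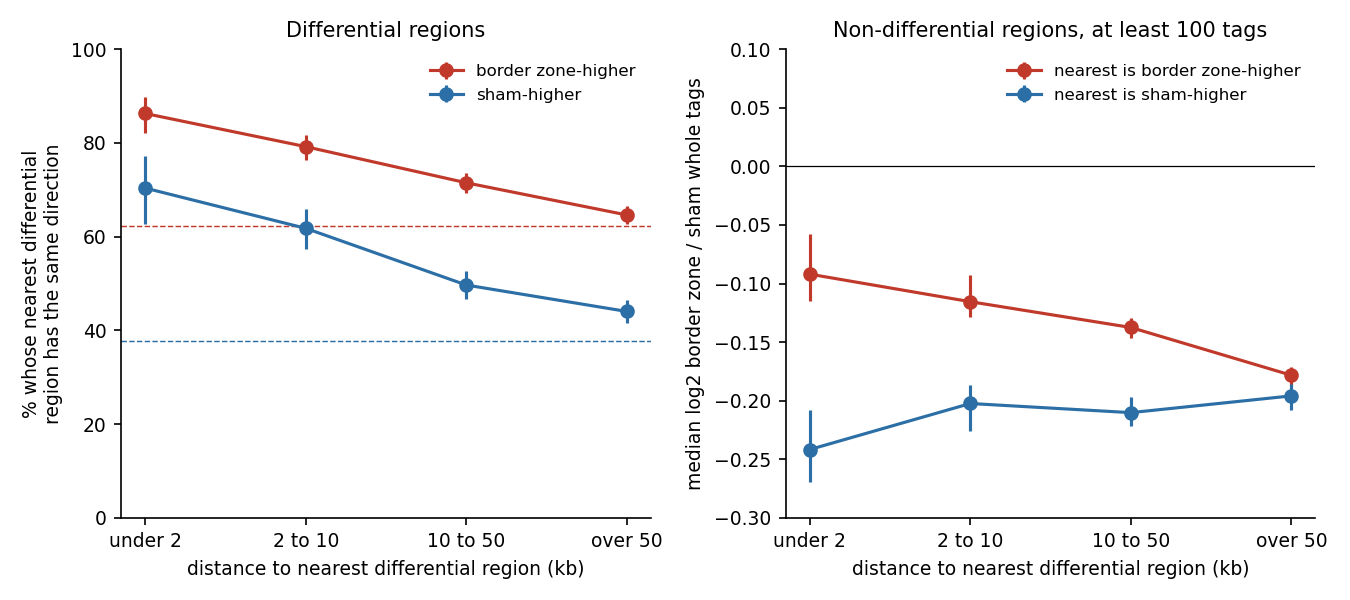
Left, percent of differential regions whose nearest differential region has the same direction, by its distance in kb, with exact 95% binomial intervals and dashed lines at each list's share of differential regions, 62.4% and 37.6%. Right, median log2 whole-tag ratio of non-differential regions with at least 100 tags that do not touch a call, by distance to the nearest call, with order-statistic 95% intervals over regions; the medians lie at -0.09 and -0.24 under 2 kb and at -0.18 and -0.20 over 50 kb.

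The genome was divided on a fixed grid of 100 kb to find where calls of one direction gathered. Of 14121 windows with a listed region, 3666 had more border zone-higher and 2180 more sham-higher regions, and 781 held both kinds. At least 5 border zone-higher and 0 sham-higher regions were found in 24 windows, and the reverse in 9 windows. Border zone-higher regions make up 62.4% of the differential regions, and a longer list gives more such windows. These counts are therefore not comparable between the directions. For each direction 5 windows with the largest difference are described next. At the fifth place 4 windows tied with a difference of 9 on the border zone side, and 8 tied with a difference of 5 on the sham side, and among tied windows the first by chromosome and position were taken. Their folds are over regions already called and are therefore accompanied by the non-differential regions of the same window. Many of these touch a called region and may share its tags, so they are no independent measure of the window.

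The window at 11600001 to 11700000 of chromosome 13 held 11 border zone-higher, 0 sham-higher and 14 non-differential regions. Its 25 regions lay in 66 kb from 11631751 to 11697750, and 24 of them had more whole tags in the border zone. Among the widest, 218 sham tags stood against 539 border zone tags at 11631751-11638250, 391 against 738 at 11639751-11645750 and 310 against 647 at 11664251-11673250. The called regions alternated with non-differential ones that leaned the same way, such as 11638251-11639750 with 247 sham and 331 border zone tags. The median whole-tag ratio of the 11 non-differential regions with at least 100 tags was 1.44, against 0.889 over the genome. Most of the 11 directly touched a called region and may share its tags. Over the genome, such regions touching a border zone-higher region had a median ratio of 1.12. Summed over all 25 regions, 2802 sham and 4592 whole border zone tags were listed, a ratio of 1.64. The single exception to the direction had 98 sham and 96 border zone tags. The surrounding 1 Mb, from 11000001 to 12000000, held 35 border zone-higher regions and 1 sham-higher region among 123, the largest excess at that scale.

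The window at 5400001 to 5500000 of chromosome 6, the first of the tied ones, had the largest fold of these windows. Its 9 border zone-higher regions summed to 476 sham and 1623 border zone tags (3.41-fold, 3.07 to 3.79). A run of 5 of them followed each other without another listed region between them, from 5415751 to 5441250, with 243 sham and 1105 border zone tags (4.55-fold, 3.95 to 5.25). Next to the deep region described above, 5433751-5437750 had 96 sham and 340 border zone tags, and 5440251-5441250 had 9 and 50.7. The deepest region of the window was level between the libraries, with 1022 sham and 1022 border zone tags at 5457251-5460250. This level region lay in the same window as the regions with the larger folds, but other listed regions lay between them. The called region directly after it, 5460251-5463250, had 75 sham and 168 border zone tags, a fold of 2.24.

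In the windows of chromosomes 5 and 7 the calls were numerous but carried few tags. The window at 93300001 to 93400000 of chromosome 5 held 13 border zone-higher regions with 315 sham and 705 border zone tags in all (2.24-fold, 1.96 to 2.57). Its deepest region, at 93387751-93391750, was non-differential with 870 sham and 750 border zone tags. The window at 137700001 to 137800000 of chromosome 7 held 13 border zone-higher regions (1.99-fold, 1.76 to 2.26) and 1 sham-higher region. Its deepest region, at 137733251-137738250, had 759 sham and 699 border zone tags. Over all 28 regions of each window, whole tags of the border zone were 1.09 and 1.07 times those of sham. In both windows the called regions had fewer tags than their non-differential neighbours, with median totals of 59 against 216 on chromosome 5 and 77.5 against 175.5 on chromosome 7.

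The window at 141900001 to 142000000 of chromosome 3 held 10 border zone-higher and 9 non-differential regions (2.18-fold, 1.97 to 2.41 over the called ones). The largest called region, 141949251-141954750, had 164 sham and 427 border zone tags. The 8 non-differential regions with at least 100 tags had a median whole-tag ratio of 1.22, and all 19 regions together gave 1.43. Of the 19 regions, 16 had more border zone whole tags. The 3 others had whole-tag ratios from 0.835 to 0.942.

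On the sham side, the window at 55500001 to 55600000 of chromosome 14 held 7 sham-higher and 0 border zone-higher regions among 15. The stretch of calls went on past its end, and from 55560751 to 55619750 all 21 listed regions had more sham than border zone whole tags, with ratios of border zone to sham from 0.392 to 0.645. In these 59 kb, 11 regions were sham-higher and 10 non-differential. The non-differential regions had ratios from 0.537 to 0.645, and the called ones from 0.392 to 0.507. The fold threshold that split the lists largely sets these ranges apart in advance. Both ranges lay below the genome median of 0.889, for the called regions by their selection. All 10 non-differential regions directly touched a sham-higher region and may share its tags. Over the genome, non-differential regions with at least 100 tags that touched a sham-higher region had a median ratio of 0.76. The region with the most tags, 55564251-55567250, was itself non-differential, with 1928 sham and 1101 border zone tags. Beside it, 55560751-55564250 had 998 sham and 513 border zone tags (1.94-fold, 1.74 to 2.18), and 55579751-55582250 had 810 and 383. The wide region just after the stretch, 55619751-55629250, had 3378 sham and 2405 border zone tags, a ratio of 0.712, which is nearer to the genome median of 0.889.

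The window at 122900001 to 123000000 of chromosome 5 had the most sham-higher calls. Its 10 sham-higher regions summed to 1057 sham and 546 border zone tags (1.94-fold, 1.74 to 2.16), and 0 of its regions were border zone-higher. All 23 listed regions had more sham tags, with whole-tag ratios from 0.442 to 0.850. Most of its tags lay in wide non-differential regions, such as 122906751-122921750, which spans 15000 bp with 2398 sham and 1707 border zone tags. Over the window, whole border zone tags were 0.698 times those of sham.

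The other 3 sham-side windows, from the 8 tied ones, held 5 sham-higher regions each and 0 border zone-higher regions. At 155400001 to 155500000 of chromosome 2 sham was 2.26-fold higher in the called regions (1.88 to 2.72), and the deepest region, non-differential, had 741 sham and 433 border zone tags. At 62100001 to 62200000 of chromosome 4 the fold was 2.10 (1.72 to 2.58), and the non-differential regions with at least 100 tags had a median ratio of 0.667. At 124600001 to 124700000 of chromosome 5 the fold was 1.89 (1.54 to 2.31), and the median ratio was 0.807. This last window was the nearest of the 5 to the genome median of 0.889, and 4 of its 19 regions had more border zone tags.

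**Figure D5:**
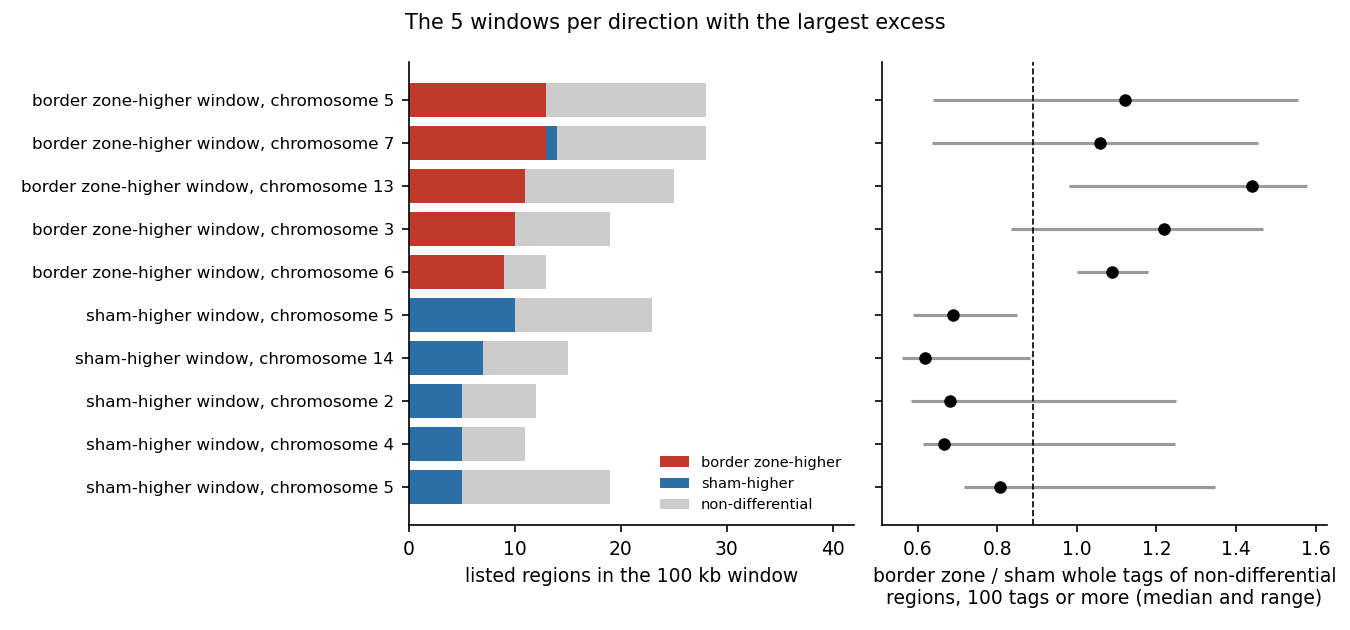
Left, listed regions in the 5 windows of 100 kb per direction with the largest difference in calls, split into border zone-higher (red), sham-higher (blue) and non-differential (grey). Right, whole-tag ratio of border zone to sham in their non-differential regions with at least 100 tags (point, median, and line, lowest to highest), with the genome median of 0.889 dashed. The medians lie between 1.06 and 1.44 in the border zone-side windows and between 0.618 and 0.807 in the sham-side windows. Many of these regions touch a called region and may share its tags.

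The longest runs of consecutive calls had 5 regions, and 5 border zone-higher runs and 1 sham-higher run reached that length. Besides the run on chromosome 6, the first border zone-higher ones in chromosome order lay at chr5:93361751-93379250, with 123 sham and 290 border zone tags in all (2.35-fold, 1.90 to 2.94), and at chr8:28147251-28321250, with 116 and 268 (2.31-fold, 1.84 to 2.90). The run on chromosome 8 was spread over 174 kb, whereas that on chromosome 5 covered 17.5 kb. The longest sham-higher run, chr9:48489251-48508250, covered 19 kb with 403 sham and 178 border zone tags (2.27-fold, 1.89 to 2.72). It was followed by runs of 4 regions at chr2:151975751-152016250, with 261 and 128 tags, and at chr6:128879251-129111250, with 622 and 259. No run of either direction was longer than 5 regions.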

How the data were processed

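Nuclei of 1 sham and 1 border zone left ventricle sample of day 4 were profiled by ATAC-seq, with paired reads of 76 bp. Per the submitters' processing notes, Bowtie2, bedtools and the build mm9 were used; the sources used here do not give versions, the caller of the regions, thresholds, or how duplicates and the transposase offset were treated. Per the file headers, each list gives sham and border zone tags per region. The sham tags and the border zone tags of the non-differential list are deposited counts, and the border zone tags of the differential lists are a deposited signal that the authors scaled. Region starts lie on a grid of 500 bp. Samples were assigned through column names and labels, with 0 columns of unmapped samples used. The depth of the libraries is unknown, since tags cover listed regions only.

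Whole tags were recovered from the scaled values, which are written with 6 significant digits: 8660 of 9174 (94.4%) were 1 whole number times 1 factor, 513 were sums of such terms, and 62 are approximate. The decoding was tested on simulated data made with the same rule for the factors, so this cannot check the rule itself. Among 1500 bp regions with the factor 1.03, 249 of 453 had totals above 82, up to 160, so tags of merged regions appear to be counted more than once and their intervals are too narrow. In all, 6 listed regions share bases with another. With 1 library per condition there was no test. Regions were named by rule: per direction, the 10 with the largest bound nearest to 1, the 5 windows of 100 kb with the largest difference, the 3 longest runs, the 3 widest and the 3 deepest regions, and those nearest to the threshold. The other deep regions, the 59 kb stretch of chromosome 14 and its flank were chosen after their values were seen. The members, lists and rules were chosen with earlier results of these data known. Python 3.11.15, pandas 2.3.3 and scipy 1.17.1 were used. Alternatives concerned scaling, fold, tag minimum, distance, window size and width.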

Additional observations from a re-analysis of the deposited data

How the results depend on the processing

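Of 64 alternative values, 34 were classed as the same as the main value and 30 as moved. The first class was wide for counts. It took in 4668 border zone-higher regions with no scaling, against 5721 in the main setting. Most values are counts or levels within a list and have no direction that could change, so a reversal was not tested for them. Border zone-higher regions stayed the larger part of the differential regions in each setting, but the order of the median folds of the lists turned with no scaling. A stricter fold of 2 left 3573 border zone-higher and 1635 sham-higher regions, and a larger value of at least 100 tags left 972 and 270, since fewer regions can pass. The border zone share of 62.4% became 68.6% and 78.3% under these limits, 60.3% in 1000 bp regions, and 58.4%, 65.7% and 54.2% with the factor 1.03, the factor 1.08 from the listed tags and no scaling. At 100 or more tags in total it was 74.5%, 64.8% with the factor 1.03 and 56.5% with no scaling. Such recalls cover listed regions only, and low sham-leaning regions are missing from them. The median folds were taken within the deposited lists, which were not called again. With the factor 1.03, the factor 1.08 and no scaling, the median fold was 2.07, 2.16 and 2 in border zone-higher and 2.02, 1.94 and 2.09 in sham-higher regions. With a larger value of at least 100 tags it was 2.14 in border zone-higher regions. Counted by an interval above 2, 611 border zone-higher regions took the place of the 401 of at least 4-fold. A neighbour of the same direction was found for 19.3% and 13.2% within 10 kb and 76.9% and 63.2% within 200 kb, and for 15.95% and 14.07% within 50 kb with a larger value of at least 100 tags. On windows of 1 Mb the largest border zone excess was 34 regions. The nearest region within 2 kb shared the direction in 94.7% and 88.9% with a larger value of at least 100 tags. Beyond fewer regions passing and the scaling itself, the cause was not tested.

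No paired analysis was possible because each condition had 1 library. The planned shares of regions at transcription start sites or with a motif were not run, since no annotation or genome of mm9 was used here. The precision of single regions is limited by their tags, since 6825 of the 9174 differential regions (74.4%) had fewer than 100 tags.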
